A study of Mus musculus with 4 samples.

Results

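Transcripts of 10 IL-6 and IL-1 family genes were followed across 4 Affymetrix mouse arrays of dermal fibroblast RNA. The genes were the ligands Il6, Il11 and Lif with the receptor chains Il6st and Osmr, and the ligands Il1a, Il1b and Il33 with the antagonist Il1rn and the receptor Il1r1. All probe sets that the platform annotation assigns to one of these genes alone were taken, which gave 19 of the 34945 single-gene probe sets, for 10 of 18193 genes. A probe set is a group of short probes that together give 1 value for a transcript. Of the 19, 15 passed the level filter, a mean over the 4 arrays of at least 4.60 on the log2 scale (the 40th percentile of all probe sets that are not controls). Those under it were the only probe set of Il1a and 1 probe set each of Osmr (1459217_at), Il1rn (1425663_at) and Il1r1 (1459777_at), so 9 of the 10 genes were analysed.

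The study deleted Rbpj, the gene of the Notch effector RBP-J kappa (also called CSL), in fibroblasts of C57BL/6 background in either of 2 systems. In the in vitro pair, the deleted cells were labelled Adeno Cre and the control cells Adeno GFP, that is, an adenovirus carrying Cre recombinase or a fluorescent protein. In the in vivo pair, the deleted fibroblasts were labelled ColI Cre x RBP loxp-loxp, a Cre transgene named ColI, whose promoter the labels do not describe further, with the loxP-flanked Rbpj gene, and the control fibroblasts RBP loxp-loxp, with the same flanked gene and no Cre. Each group had 1 array, so the differences below rest on single arrays, with no replicate error and no p-value. Age, sex, the number of animals behind a sample, the medium and any culture of the in vivo cells are not stated in the labels.

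IL-6, IL-11 and LIF are secreted cytokines that signal through a shared membrane chain, gp130 (the product of Il6st), which pairs with a ligand-specific chain such as the oncostatin M receptor (Osmr) and activates JAK kinases and the transcription factor STAT3. IL-1 alpha and IL-1 beta bind the receptor encoded by Il1r1 and activate NF-kB through MyD88 and IRAK kinases, the antagonist encoded by Il1rn occupies that receptor without activating it, and IL-33 is a nuclear alarmin released from damaged cells. Fibroblasts are known both to respond to IL-1 and to secrete IL-6 and LIF, and CSL is known to bind the core letters TGGGAA, which can lie within or beside NF-kB sites.

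The windows before annotated starts are shown for Il6, Il11 and Il33, the 3 genes whose levels differed most in vivo at their brightest probe set. Each is 250 bases long, 5′ to 3′ on the strand of the gene, from RefSeq (GRCm38.p6), with matches in capitals to TGGGAA (CSL core), GGGANTTTCC (NF-kB), TGANTCA (AP-1) or TTCNNNGAA (STAT), searched on both strands.
Il6 (chr5:30012864-30013113, plus strand): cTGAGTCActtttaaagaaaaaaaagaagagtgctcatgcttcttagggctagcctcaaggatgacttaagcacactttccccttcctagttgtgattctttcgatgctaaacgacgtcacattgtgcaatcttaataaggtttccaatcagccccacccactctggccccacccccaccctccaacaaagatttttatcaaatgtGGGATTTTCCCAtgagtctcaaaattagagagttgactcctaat
Il11 (chr7:4778142-4778391, minus strand): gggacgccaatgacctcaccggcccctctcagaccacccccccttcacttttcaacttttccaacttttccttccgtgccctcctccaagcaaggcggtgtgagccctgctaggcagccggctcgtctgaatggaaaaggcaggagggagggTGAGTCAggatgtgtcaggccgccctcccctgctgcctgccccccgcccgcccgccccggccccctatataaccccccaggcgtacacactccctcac
Il33 (chr19:29945540-29945789, plus strand): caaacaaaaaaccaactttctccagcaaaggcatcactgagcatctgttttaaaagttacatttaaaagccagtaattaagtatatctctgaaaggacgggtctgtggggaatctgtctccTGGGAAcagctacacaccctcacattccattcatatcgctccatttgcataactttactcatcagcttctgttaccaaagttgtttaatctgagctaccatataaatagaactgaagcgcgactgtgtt
In the Il6 window the NF-kB match (bases -44 to -35 relative to the annotated start) and the CSL core on the opposite strand (-38 to -33) share bases, and an AP-1 match lies at -249 to -243. The Il11 window has an AP-1 match at -98 to -92, and the Il33 window a CSL core at -129 to -124. A further annotated start each of Il11 and Il33 has no match to these motifs in its window. Over the 15 windows of the 10 genes, the CSL core was in 9 windows of 7 genes (21.6% of all 32851 windows hold it), the AP-1 motif in 5 windows of 5 genes (6.75% of all), the NF-kB motif in that of Il6 alone (0.356% of all) and the STAT motif in 0 windows (7.02% of all). Among the 9 windows with a CSL core are overlapping ones of Il1rn that hold the same core, and the shares are per window and not per gene. The windows of Il6st and Osmr held none of the motifs. A match is a run of letters and not a measured binding site.

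The deposited log2 values ran from 2.87 to 13.79, and array medians from 4.94 to 5.06. The values below were quantile normalized over the 4 arrays. Rbpj itself was at 7.48 in deleted and 8.58 in control cells in vitro for probe set 1448957_at (a difference of -1.11), and at 8.51 in deleted and 8.61 in control cells in vivo (-0.10). Its other probe sets gave -1.34 and 0.10 in vitro and -0.83 and -0.49 in vivo, and whether any lies in the deleted exons was not used here. The collagen genes Col1a1, Col1a2 and Col3a1, which define fibroblasts, read at least 13.1 on every array. The spiked-in bioB control (3′ probe set) was at 8.27 to 8.31 in vitro and 6.91 to 6.95 in vivo, so levels set across the systems cannot be told apart from array batch.

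In vitro, 3 of the 15 analysed probe sets were at least 2-fold higher in the deleted cells and 0 were at least 2-fold lower, against 3.45% of all 23361 analysed probe sets higher and 0.937% lower. These 3 belong to Il6st and Osmr, and the brightest probe set of each differed by 1.13-fold (Il6st) and 1.12-fold (Osmr). In vivo, 1 of 15 was at least 2-fold higher (Il11) and 2 were at least 2-fold lower (Il33 and a probe set of Il1rn), against 2.42% of all higher and 2.66% lower. With each of the 9 genes at its brightest probe set, the median log2 difference was -0.05 in vitro (4 higher, 5 lower) and -0.19 in vivo (3 higher, 6 lower), beside -0.05 and -0.02 over all 13452 genes.

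**Figure D1:**
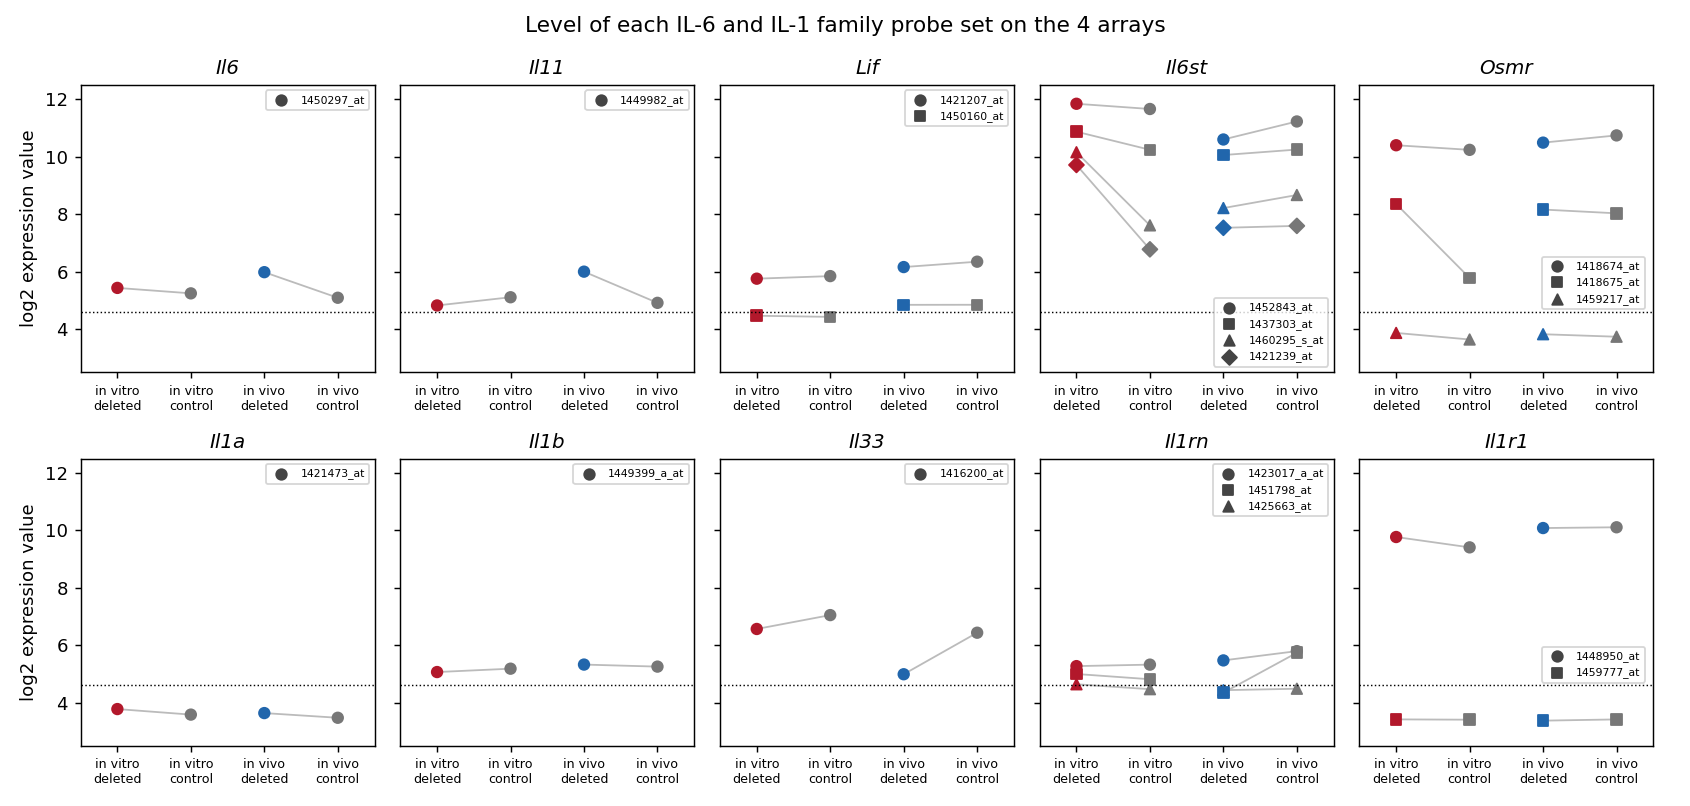
Log2 expression value (vertical axis) of every probe set of the 10 genes on the 4 arrays, 1 point per array, with grey lines joining the deleted array to its control and the dotted line at the level filter (4.60). Il6 and Il11 stand highest on the in vivo deleted array, Il33 stands lowest there, and the dimmer probe sets of Il6st and Osmr separate the in vitro pair while the brightest ones do not.

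Among the IL-6 family ligands, Il6 and Il11 were higher in the deleted fibroblasts in vivo, and Lif was not. Il6, the acute-phase cytokine of the family (1450297_at), read 5.98 in deleted and 5.09 in control fibroblasts in vivo, and 5.43 in deleted and 5.24 in control cells in vitro. The in vivo deleted array was thus the highest and the other arrays lay within 0.4 of each other. The in vivo difference was 0.89 (1.86-fold), short of the 2-fold threshold, and lay at percentile 96.8 of all analysed probe sets, and the in vitro difference was 0.19 (1.14-fold).

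Il11, a cytokine of stromal cells known to act on fibroblasts themselves (1449982_at), read 6.00 in deleted and 4.91 in control fibroblasts in vivo, and 4.82 in deleted and 5.10 in control cells in vitro. It was again highest on the in vivo deleted array, and lowest on the in vitro deleted one. The difference was 1.09 in vivo (2.12-fold, percentile 98.1) and -0.29 in vitro. With the values as deposited the in vivo difference was 0.99, just under 2-fold. Lif, the leukaemia inhibitory factor (1421207_at), read 6.16 in deleted and 6.34 in control fibroblasts in vivo, and 5.75 in deleted and 5.84 in control cells in vitro. Its order followed the system and not the deletion, with differences of -0.19 and -0.09. The other probe set of Lif (1450160_at) differed by -0.0025 in vivo and 0.04 in vitro and was under the filter level on both in vitro arrays.

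The receptor chains gave the largest differences of the family, and these were limited to some probe sets of each gene. Il6st, which encodes gp130, has 4 probe sets, all above the filter. The brightest (1452843_at) read 11.84 in deleted and 11.66 in control cells in vitro, and 10.60 in deleted and 11.23 in control fibroblasts in vivo. Its differences were thus small in vitro (0.18) and below 0 in vivo (-0.63, 1.55-fold lower, percentile 7.31). The next (1437303_at) read 10.87 in deleted and 10.24 in control cells in vitro (0.63), and 10.06 in deleted and 10.25 in control fibroblasts in vivo (-0.19).

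The other 2 probe sets of Il6st, which the annotation lists under 1 shared target sequence, stood apart on the in vitro deleted array. Probe set 1460295_s_at read 10.16 in deleted and 7.61 in control cells in vitro (2.55, 5.84-fold), and 8.21 in deleted and 8.67 in control fibroblasts in vivo (-0.45). Probe set 1421239_at read 9.71 in deleted and 6.77 in control cells in vitro (2.94, 7.67-fold), and 7.52 in deleted and 7.59 in control fibroblasts in vivo (-0.07). On both, the in vitro deleted array was the highest of the 4 and the in vitro control the lowest. In vivo all 4 probe sets were lower in the deleted fibroblasts, by 0.07 to 0.63 in size, and none reached 2-fold.

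Osmr, the receptor chain for oncostatin M, also had a split between probe sets in vitro. In Il6st, the brighter probe sets are listed under other target sequences than those that stood apart. The 2 analysed probe sets of Osmr, which split in vitro, are listed under 1 shared target sequence. The brighter (1418674_at) read 10.40 in deleted and 10.24 in control cells in vitro (0.16), and 10.49 in deleted and 10.74 in control fibroblasts in vivo (-0.25). The dimmer (1418675_at) read 8.35 in deleted and 5.78 in control cells in vitro (2.58, 5.97-fold), and 8.16 in deleted and 8.03 in control fibroblasts in vivo (0.13). Here the in vitro control array was the one apart, more than 2 log2 units below the other 3 arrays, which lay within 0.4 of each other. The third probe set of Osmr (1459217_at) stayed under the filter level on all 4 arrays, at 3.63 to 3.86.

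Splits of this size were uncommon among genes. The in vitro differences of the analysed probe sets spanned 2.76 for Il6st and 2.42 for Osmr. Of 5928 genes with several analysed probe sets, 130 (2.19%) had in vitro differences that spanned at least 2, and 27 (0.455%) had in vivo differences that did. Of the 805 probe sets at least 2-fold higher in vitro, 716 (88.9%) were not the brightest of their gene, against 93 of 219 (42.5%) among those at least 2-fold lower, and 230 of 566 higher (40.6%) and 201 of 622 lower (32.3%) in vivo.

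The control probe sets for RNA integrity moved with this split. The 3′ probe set of Gapdh exceeded its 5′ probe set by 0.02 in deleted and 1.003 in control cells in vitro, and by 0.13 in deleted and 0.14 in control fibroblasts in vivo. For Actb the excess was 0.40 in deleted and 1.11 in control cells in vitro, and for Pcx 2.01 in deleted and 3.16 in control cells. Tfrc went the other way, at 1.45 in deleted and 0.96 in control cells. The positions of the Il6st and Osmr probe sets along their transcripts were not used here, and the part of RNA integrity in their differences was not tested.

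**Figure D2:**
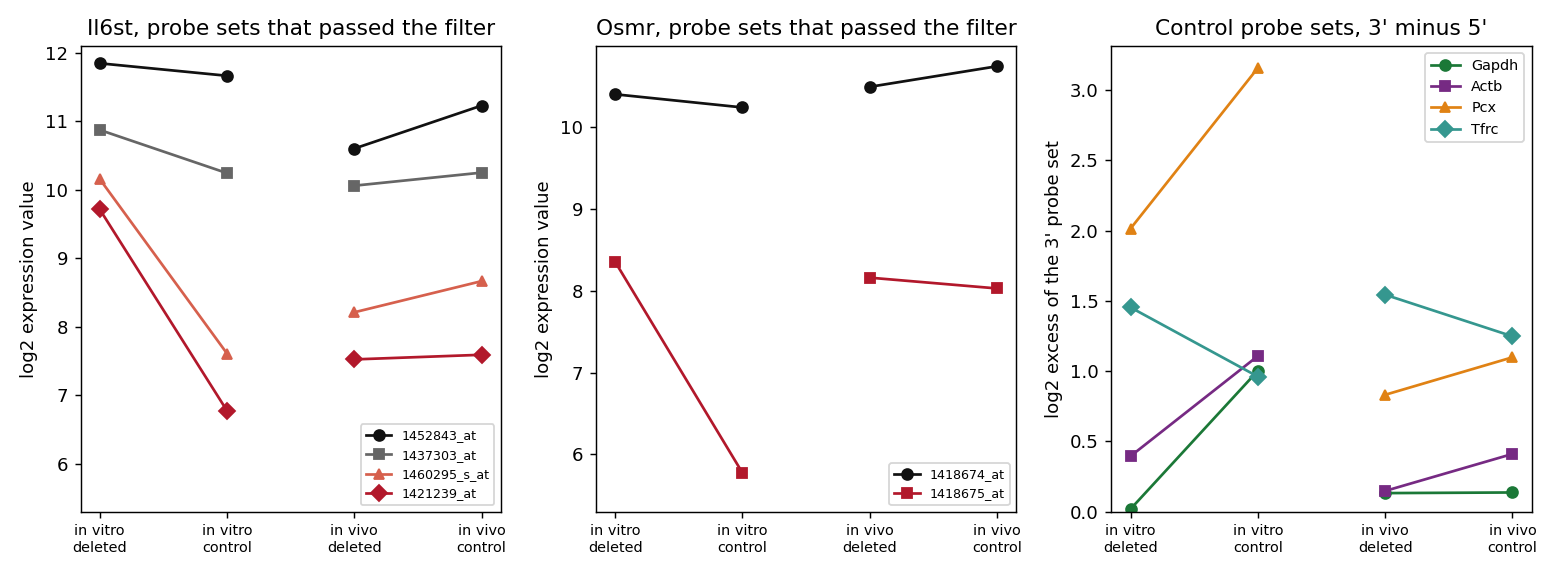
Left and centre, log2 expression value of the analysed probe sets of Il6st and Osmr on the 4 arrays. Right, log2 excess of the 3′ over the 5′ control probe set of Gapdh, Actb, Pcx and Tfrc on the same arrays. Lines join the deleted array to its control. The 3 steep lines in vitro are 1460295_s_at, 1421239_at and 1418675_at (2.55, 2.94 and 2.58), and the 3′ excess of Gapdh, Actb and Pcx was lower on the in vitro deleted than on the in vitro control array.

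Among the IL-1 family ligands, only Il33 differed by 2-fold, and it was lower with the deletion in both systems. Il33 (1416200_at) read 4.99 in deleted and 6.44 in control fibroblasts in vivo, and 6.57 in deleted and 7.05 in control cells in vitro. The in vivo deleted array was the lowest by more than 1.4, and within each system the deleted array was below its control. The difference was -1.45 in vivo (2.73-fold lower, percentile 0.946) and -0.48 in vitro (1.40-fold lower, percentile 11.3). The in vivo deleted signal lay within 0.4 of the filter level, and the in vivo difference was -1.11 once the 20th percentile of the linear values was added before log2. The in vivo control signal of Il11 also lay within 0.4 of the filter level, and its in vivo difference was 0.80 under that setting.

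Il1b (1449399_a_at), the IL-1 form made chiefly by myeloid cells, read 5.33 in deleted and 5.26 in control fibroblasts in vivo, and 5.07 in deleted and 5.19 in control cells in vitro. Its arrays all lay within 0.3 of each other, with differences of 0.07 and -0.12. Il1a (1421473_at), the form stored in epithelial cells, was under the filter level on every array, at 3.64 in deleted and 3.48 in control fibroblasts in vivo and 3.78 in deleted and 3.59 in control cells in vitro. No difference of Il1a was readable at this signal.

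The antagonist gene Il1rn had probe sets of unlike behaviour in vivo. The brightest (1423017_a_at) read 5.47 in deleted and 5.80 in control fibroblasts in vivo (-0.32), and 5.27 in deleted and 5.33 in control cells in vitro (-0.05). Probe set 1451798_at read 4.35 in deleted and 5.74 in control fibroblasts in vivo (-1.39, 2.62-fold lower), and 5.00 in deleted and 4.82 in control cells in vitro (0.18). Its in vivo deleted signal was under the filter level, so the fold rests on background there, and the difference was -0.95 once the 20th percentile of the linear values was added before log2. Probe set 1425663_at differed by -0.05 in vivo and 0.17 in vitro, with a mean under the filter.

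Il1r1, the signalling receptor for both forms of IL-1 (1448950_at), was well above the filter level throughout. It read 10.08 in deleted and 10.11 in control fibroblasts in vivo, and 9.77 in deleted and 9.41 in control cells in vitro. The in vivo arrays differed by -0.03 and the in vitro arrays by 0.36 (1.28-fold). Its other probe set (1459777_at) read 3.38 to 3.42 on all arrays.

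**Figure D3:**
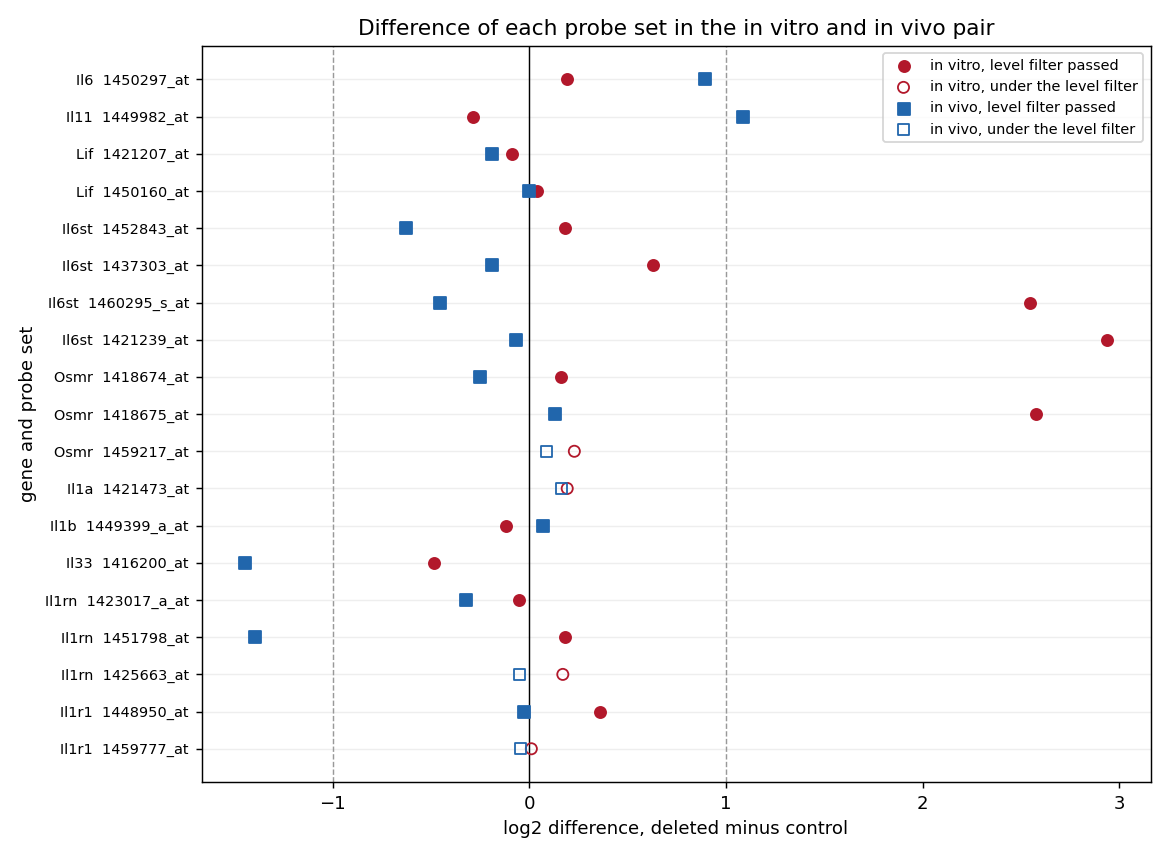
Log2 difference, deleted minus control (horizontal axis), of each of the 19 probe sets in the in vitro (circles) and in vivo (squares) pair, with open symbols for probe sets under the level filter and dashed lines at 2-fold. Il33 is left of 0 in both pairs, Il11 lies beyond 1 in vivo only, and the 3 points beyond 2 are the dimmer probe sets of Il6st and Osmr in vitro.

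A deletion effect shared by both systems was tested with limma over all 23361 analysed probe sets, with system as a covariate, and 0 probe sets passed a Benjamini-Hochberg adjusted p of 0.05. At an unadjusted p under 0.05, 3.10% of all probe sets were higher and 3.39% lower, and among the 15 of the family there was 1, Il33. Its shared log2 effect was -0.97 ± 0.30 (SE), lower in 2 of 2 pairs, with an adjusted p of 0.702 by limma. Il6 had a shared effect of 0.54 ± 0.25 (SE) and an adjusted p of 0.702 by limma, higher in 2 of 2 pairs. Osmr 1418675_at had a shared effect of 1.35 ± 0.64 (SE) at the same adjusted p by limma, also higher in 2 of 2 pairs. That adjusted p was the lowest over all 23361 probe sets.

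The further genes of the pathways are summarised at their brightest probe set. Of 89 genes listed (Il6st and Osmr among them, as STAT3 responders), 75 had a probe set and 69 passed the filter. In vivo, 10 of the 69 were at least 2-fold higher and 0 lower in the deleted fibroblasts, beside 2.5% of all genes higher and 3.13% lower. In vitro, 0 were at least 2-fold higher and 2 lower, beside 0.662% of all genes higher and 0.937% lower. The list median was 0.10 in vivo and -0.02 in vitro, and 0 of the 69 were called for a shared effect by limma. The lists were chosen with earlier results of these data known, so these counts do not test the pathways.

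The ligands and receptor chains of the IL-6 family outside the 10 genes had no 2-fold difference in either system (0 of 3 ligands and 0 of 5 chains analysed). Lifr, the LIF receptor, was at 7.76 in deleted and 8.33 in control fibroblasts in vivo (-0.56), and Il31ra, a chain of the IL-31 receptor, at 5.18 and 5.97 (-0.79). The 2 analysed probe sets of Lifr spanned -0.56 to 0.004 in vivo. The ligand Ctf1, cardiotrophin 1, differed by -0.54 in vivo and 0.22 in vitro. Of 9 genes of JAK-STAT3 signalling and feedback, 0 differed by 2-fold at their brightest probe set. The 3 probe sets of Jak1 spanned 0.16 to 1.73 in vitro. Socs3, the STAT3-induced inhibitor of gp130 signalling, read 10.00 in deleted and 9.52 in control fibroblasts in vivo (0.48), and 7.03 in deleted and 7.31 in control cells in vitro (-0.28). Pias3, an inhibitor of STAT3, differed by -0.75 in vivo and -0.41 in vitro, and Jak2 by -0.37 and -0.45. Over the 2 probe sets of each gene, the in vitro differences spanned -0.41 to 0.89 for Pias3 and -0.45 to 0.52 for Jak2. Over 3 probe sets each, they spanned -0.28 to 0.16 for Socs3 and -0.99 to 0.22 for Stat3.

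STAT3 response genes had a median of 0.51 in vivo, with 4 of 14 at least 2-fold higher, beside 2.5% of all genes. In vitro the median was -0.25, with 1 of 14 at least 2-fold lower, beside 0.937% of all genes. By sign, 10 of the 14 were higher in vivo, beside 47% of all genes, and 4 were lower. Cebpd (-0.77) and Il6st (-0.63) were the lowest in vivo. Saa3, an acute-phase protein, read 11.10 in deleted and 7.78 in control fibroblasts in vivo (3.32), and 7.18 in deleted and 8.36 in control cells in vitro (-1.18). It was thus on opposite sides of its control in the 2 systems. Lcn2, the iron-binding lipocalin, differed by 2.08 in vivo, with a control signal of 4.58 just under the filter level, and by -0.38 in vitro. Hp, haptoglobin, differed by 1.31 in vivo and -0.76 in vitro. The fourth gene past 2-fold in vivo, Serpina3n (1.002), is named after its value was seen.

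On the IL-1 side, 0 of 2 further ligands, 0 of 6 receptor chains and binding proteins and 0 of 11 signalling genes differed by 2-fold at their brightest probe set. Dimmer probe sets passed that threshold in vitro in some of these genes. The 2 probe sets of Tollip spanned -0.26 to 2.01 in vitro, and the 6 of Ikbkg -0.38 to 1.12. Il1rap, the partner chain of the IL-1 and IL-33 receptors, read 7.60 in deleted and 7.01 in control fibroblasts in vivo (0.59), and 8.05 in deleted and 7.49 in control cells in vitro (0.56). Its 3 probe sets spanned 0.00 to 1.58 in vitro and -0.10 to 0.59 in vivo. The decoy receptor Il1r2 differed by -0.44 in vivo and -0.54 in vitro. Il18, a further IL-1 family ligand, differed by -0.50 in vivo and -0.22 in vitro. Of 4 analysed processing genes, Casp4, the inflammatory caspase, was higher in vivo at 7.14 in deleted and 5.28 in control fibroblasts (1.86), and read 6.31 in deleted and 6.35 in control cells in vitro. Casp1, the enzyme that cleaves pro-IL-1 beta, differed by 0.10 in vivo and -0.45 in vitro. The other processing genes, Pycard and Gsdmd, differed by -0.06 and -0.36 in vivo and by -0.68 and -0.67 in vitro. All 4 processing genes were lower in vitro, with a median of -0.56 and 0 past 2-fold. Over all 13452 genes, 43.2% were higher in vitro, and the median was -0.05.

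IL-1 and NF-kB response genes had a median of 0.62 in vivo, with 5 of 16 at least 2-fold higher, beside 2.5% of all genes. In vitro the median was 0.15, with 1 of 16 at least 2-fold lower, beside 0.937% of all genes. With the values as deposited, the in vitro count was 1 higher and 0 lower. Ptgs2, the inducible prostaglandin synthase, read 9.35 in deleted and 6.36 in control fibroblasts in vivo (2.99), and 6.49 in deleted and 6.04 in control cells in vitro (0.45). Mmp3, a matrix protease, differed by 2.73 in vivo and -1.02 in vitro, and the chemokine gene Ccl2 by 1.28 and 0.26. The feedback inhibitor Tnfaip3 was higher in both pairs. It differed by 1.01 in vivo, where the control signal was under the filter level (5.33 in deleted and 4.31 in control fibroblasts). In vitro it differed by 0.96 (7.28 in deleted and 6.32 in control cells). Its 2 analysed probe sets spanned 0.28 to 1.01 in vivo and 0.96 to 1.20 in vitro. The other gene past 2-fold in vivo, Nfkbiz (1.03), is named after its value was seen. The adhesion receptor genes Icam1 and Vcam1 were at -0.36 and -0.35 in vivo. In vitro the probe sets of some genes in this list differed widely. The 2 of Ptgs2 spanned 0.45 to 1.01, the 3 of Vcam1 0.20 to 1.30 and the 5 of Nfkbia -0.75 to 0.19.

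**Figure D4:**
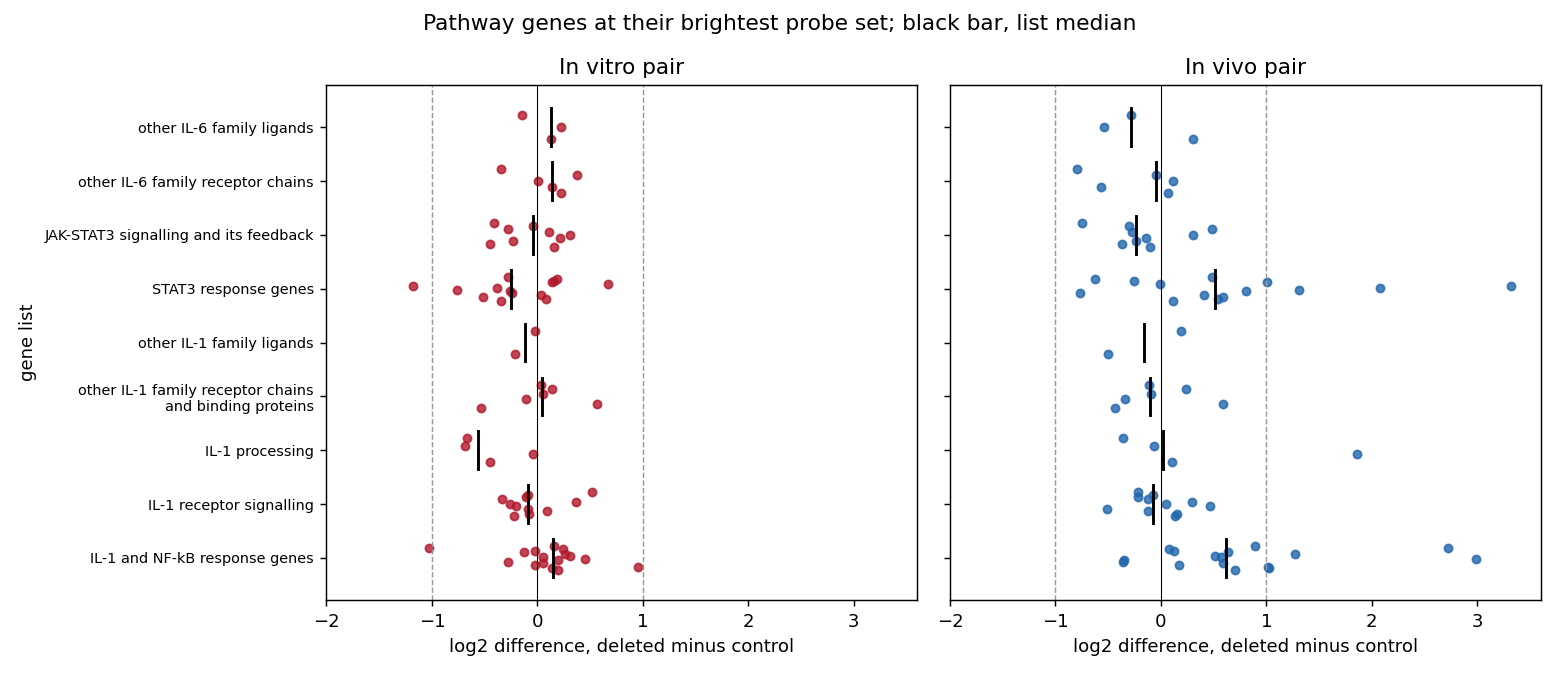
Log2 difference, deleted minus control (horizontal axis), of the analysed genes of the 9 pathway lists at their brightest probe set, in the in vitro (left) and in vivo (right) pair. Each point is 1 gene, black bars are list medians and dashed lines mark 2-fold. The points beyond 1 in vivo are in the STAT3 response, IL-1 processing and IL-1 and NF-kB response lists, and in vitro no gene lies beyond 1 on the higher side.

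Markers of other cell types moved with the in vivo pair. Of 10 keratinocyte markers, 5 were at least 2-fold higher in the deleted fibroblasts and 0 at least 2-fold lower, beside 2.5% and 3.13% of all genes. By sign alone, 6 of the 10 were higher and 4 lower, the lowest being Trp63 (-0.45). The summed linear signal of the 10 was 6359 in deleted and 713.8 in control fibroblasts in vivo, and 876.1 in deleted and 1268 in control cells in vitro. The 6 skeletal muscle markers summed to 3160 in deleted and 625.3 in control fibroblasts in vivo. The 10 macrophage and dendritic cell markers summed to 747.2 in deleted and 694.9 in control fibroblasts in vivo, with Cd74 higher by 1.41 and Lyz2 lower (-1.06) on the log2 scale. The 5 neutrophil markers summed to 204.2 in deleted and 108.8 in control fibroblasts in vivo, with 1 of 5 in deleted and 4 of 5 in control fibroblasts under the filter level. Mast cell markers (5) summed to 215.7 in deleted and 137.2 in control fibroblasts in vivo, T cell markers (4) to 176.4 and 173.5, endothelial markers (5) to 156.8 and 155.8, and the 8 fibroblast markers to 54662 and 55147. Of those 8, 5 were lower in the deleted fibroblasts in vivo, 1 of them by 2-fold (Lum, -1.06), with Pdgfra next at -0.59. In these bulk samples fewer cells of a type and less RNA per cell cannot be told apart, and the part of such cells in the in vivo differences of Il6, Il11, Il33, Il1rn and the response genes was not tested.

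The patterns of Il33 and Il11 over the 4 arrays, as log2 values centred on their mean, were shared by many genes. By Euclidean distance over the brightest probe sets of 13451 other genes, Dcxr (0.09), Ift122 (0.11) and Sft2d2 (0.15) were nearest to Il33, and 93 genes lay within 0.5. H2az1 (0.04), Camk2n1 (0.10) and Lyar (0.10) were nearest to Il11, with 382 genes within 0.5. With 4 arrays such likeness is a description only.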

How the data were processed

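RNA with a poly(A) tail was primed with T7 oligo(dT) and labelled with biotin as antisense cRNA, per the labels' protocols, so signal depends on RNA integrity and on a probe set's distance from the 3′ end. The authors deposited log2 expression values of 45101 probe sets, none missing. Their software, background correction and normalization are not given in the sources used here, and the log2 scale follows from the values. Quantile normalization over the 4 arrays was added with limma 3.58.1 in R 4.3.3. Of 35890 annotated probe sets, 34958 had 1 gene symbol and 932 had several and were not named, and 34754 matched RefSeq (GRCm38.p6). Control probe sets were left out. A gene stands at its probe set with the highest mean. Differences within a system (deleted minus control) were not tested. The shared effect was fitted in limma (lmFit, eBayes) on system and deletion, where the 2 systems are the replicates, with Benjamini-Hochberg adjustment over all analysed probe sets. The procedures were tested on simulated data. Members, lists and thresholds were chosen with earlier results of these data known. Named were all members, Rbpj, up to 3 genes per list and system with the largest absolute difference, and the 3 nearest profiles of Il33 and Il11. The collagen genes, Icam1, Vcam1, Serpina3n, Nfkbiz, Nfkbia, Jak1, Stat3, Cebpd, Tollip, Trp63, Cd74, Lyz2, Lum and Pdgfra were chosen after their values were seen. The number of arrays limits the precision. The alternatives tried are given in the closing section.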

Additional observations from a re-analysis of the deposited data

Results flagged for a closer look

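With 1 pair per system, 10 of the 15 analysed probe sets of the family had differences of opposite sign in the 2 systems. Whether the systems differ was not tested. The share of all analysed probe sets with opposite signs was not computed, so the count is not a trait of the family. Over all 13452 genes at their brightest probe set, 43.2% were higher in vitro and 47% in vivo. The in vitro difference minus the in vivo difference, on the log2 scale, was 3.007 for Il6st 1421239_at, 3.001 for 1460295_s_at, 0.821 for 1437303_at and 0.810 for 1452843_at, so all 4 probe sets of Il6st were higher in vitro and lower in vivo. It was 1.574 for Il1rn 1451798_at, 0.412 for Osmr 1418674_at and 0.388 for Il1r1. It was -1.373 for Il11, the widest gap in the other direction, and -0.188 for Il1b. Lif 1450160_at, at 0.042, had no readable difference in either system.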

How the results depend on the processing

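In vitro, 2 (without probe sets ending in _x_at or _s_at) or 3 probe sets of the family were at least 2-fold higher and 0 lower under the alternatives that kept that threshold, 4 were 1.5-fold higher and 3 were 3-fold higher. In vivo the 3 past 2-fold became 1 with the 20th percentile of the linear values added before log2 or with the 60th percentile filter (Il33 in both cases), 5 with a 1.5-fold threshold and 0 with a 3-fold threshold. With the values as deposited, centred or not, 2 remained in number, both lower. The in vitro difference of Il6st was 0.18 at its brightest probe set and 1.59 as the median of its 4 probe sets. The shared effect gave 0 calls in the family under each alternative, and the lowest adjusted p there was between 0.690 and 0.99996 by limma. Of 134 recomputed member differences, 0 of those past 2-fold changed sign, and 133 moved by less than the SD over all probe sets (0.48 in vitro, 0.50 in vivo), the exception being that of Il6st. The 134 include medians for Il6, Il11, Il1a, Il1b and Il33, which have 1 probe set each and could not move under that setting. With the added percentile, 3 in place of 5 NF-kB response genes were past 2-fold in vivo and 0 in place of 1 in vitro. With the median of a gene's probe sets, chosen after seeing the data, 5 pathway genes in place of 2 were past 2-fold in vitro (3 higher), and 10 in vivo by either summary. No paired analysis within a system was possible because each group had 1 array. In the limma fit of the shared effect the system is the block. Dim probe sets lie near background, those of Il1a, Il1b, Il1rn, Il6 and Il11 among them, and with the added percentile the in vivo difference of Il11 was 0.80.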
